A study of Caenorhabditis elegans with 2 samples.

Results

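The 78 genes described here carry the symbols of cytosolic ribosomal protein genes of Caenorhabditis elegans. They were chosen by name, as every protein-coding gene of the Ensembl WBcel235 models whose symbol starts with rpl- or rps- followed by a digit. Of the 19973 protein-coding genes on the 6 nuclear chromosomes, 47 were large subunit (rpl-) and 31 small subunit (rps-) genes. RefSeq product names of 74 of the 78 named a ribosomal protein or subunit. The other 4 were rps-10, rps-30, rpl-42 and rpl-24.2, and RefSeq calls rpl-24.2 a putative ribosome biogenesis protein.

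The data are from chromatin immunoprecipitation and sequencing (ChIP-seq) of LIN-39, the Hox transcription factor of the worm mid-body, carried as an eGFP fusion. All worms were of strain OP18, which bears unc-119(ed3) III and the integrated transgene wgIs18, and were whole L2 larvae of pooled sex. There was 1 group, with biological replicates 1 and 2, and no second stage, genotype or factor. The sources used here do not give what drives the transgene or how many animals entered each library, and a region seen in whole larvae cannot be assigned to a cell type. The values come from ranked lists of 30000 candidate regions each, 1 list from both replicates together and 1 from each replicate. A rank of 1 is the strongest region of a list, by the peak caller's deposited signal value. Each gene received the best rank among regions whose summit lay within 1000 bp of the 5′ end of 1 of its coding transcripts. The authors' optimal list of reproducible peaks held exactly the 311 strongest regions of the list from both replicates, and "strongest" below means those 311, or the first 311 of a replicate's own list. Read depth is unknown from these lists, and no list from a control immunoprecipitation or from input DNA was used here.

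A ribosome has a small (40S) subunit that reads the mRNA and a large (60S) subunit that joins amino acids, and nearly every protein in it is needed in a fixed number of copies. Ribosomal protein genes are among the most highly transcribed genes of a growing larva. Many worm genes, ribosomal protein genes among them, make transcripts whose leader is replaced by trans-splicing, so the annotated 5′ end is often a splice acceptor downstream of where transcription began. LIN-39 is known for patterning vulval precursor cells, migrating neuroblasts and ventral cord neurons.

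The sequence at the summit is shown first, because the words counted further on were searched in it. The word AGTGTA, marked below, was itself read off these windows. The windows belong to 8 of the 15 genes described below as strongest, with 75 bases to each side of the summit, read from the RefSeq WBcel235 genome (the same assembly as ce11) and printed 5′ to 3′ on the strand of the gene. Capitals mark 2 words on either strand: AGTGTA (reverse complement TACACT) and GAGAGA (reverse complement TCTCTC). The windows are rpl-15 at IV:654845-654995 (minus strand), rpl-20 at IV:4749993-4750143 (minus), rpl-35 at III:7854593-7854743 (plus), rpl-3 at III:3867456-3867606 (plus), rps-12 at III:5679060-5679210 (plus), rpl-12 at IV:13240615-13240765 (minus), rps-1 at III:4475592-4475742 (plus) and rps-22 at III:1950418-1950568 (plus).
rpl-15: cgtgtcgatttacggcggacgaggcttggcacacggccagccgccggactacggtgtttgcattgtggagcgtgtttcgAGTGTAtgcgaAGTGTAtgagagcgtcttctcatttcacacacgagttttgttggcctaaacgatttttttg
rpl-20: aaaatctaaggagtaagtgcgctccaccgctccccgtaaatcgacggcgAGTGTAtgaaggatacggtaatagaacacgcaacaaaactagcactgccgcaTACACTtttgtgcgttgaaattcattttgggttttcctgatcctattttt
rpl-35: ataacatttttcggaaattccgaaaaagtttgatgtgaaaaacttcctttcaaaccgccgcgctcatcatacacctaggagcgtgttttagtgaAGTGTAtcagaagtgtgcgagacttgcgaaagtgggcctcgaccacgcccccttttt
rpl-3: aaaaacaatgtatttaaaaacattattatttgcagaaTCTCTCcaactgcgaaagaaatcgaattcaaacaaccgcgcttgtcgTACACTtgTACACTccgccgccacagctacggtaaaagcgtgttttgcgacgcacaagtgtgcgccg
rps-12: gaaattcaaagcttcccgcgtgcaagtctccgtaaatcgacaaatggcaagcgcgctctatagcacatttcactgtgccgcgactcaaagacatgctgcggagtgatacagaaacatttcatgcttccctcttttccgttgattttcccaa
rpl-12: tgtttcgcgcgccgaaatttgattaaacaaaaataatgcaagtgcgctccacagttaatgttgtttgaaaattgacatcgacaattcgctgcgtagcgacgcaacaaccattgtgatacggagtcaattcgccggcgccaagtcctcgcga
rps-1: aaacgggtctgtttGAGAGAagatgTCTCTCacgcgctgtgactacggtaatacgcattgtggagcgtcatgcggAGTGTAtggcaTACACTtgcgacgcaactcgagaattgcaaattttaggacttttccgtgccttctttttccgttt
rps-22: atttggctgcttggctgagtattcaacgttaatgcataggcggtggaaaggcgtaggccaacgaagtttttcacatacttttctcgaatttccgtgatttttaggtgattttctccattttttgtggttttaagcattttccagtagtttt
AGTGTA stood 2 times in each of the windows of rpl-15, rpl-20, rpl-3 and rps-1 and 1 time in that of rpl-35. The windows of rps-12, rpl-12 and rps-22 held neither word.

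Ribosomal protein genes were often beside the strongest LIN-39 regions. In the list from both replicates, 15 of the 78 genes (19.2%, 95% interval 11.18 to 29.73) had 1 of the 311 strongest regions within 1000 bp, where 0.986% of all protein-coding genes did. These 15 genes lay beside 14 regions, since rpl-24.1 and rps-10 shared 1. With the 1000 strongest regions the count was 22 genes (28.2%), against 2.51% of all genes. For any region of the list it was 50 genes (64.1%, 95% interval 52.4 to 74.7), against 51.4% of all genes. A best region beyond the first 1000 was found for 28 of the 78 genes (35.9%) and for 48.9% of all genes. No test was run on these counts, because the genes were chosen with results of these data known and genes are not replicates; the intervals cover the counting of genes only.

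Best ranks were spread from 13 to 28587, with wider gaps further down than the one at the threshold, such as from 1821 to 3849. The 15 strongest genes had ranks 13 to 170, with deposited signal values from 50.8 to 116.5, and the next gene stood at rank 516. Of the remaining 63 genes, 7 ranked between 516 and 814, 12 beyond 1000 and up to 10000 and 16 beyond 10000, and 28 had no region in the list. The median best rank, with a gene without a region counted as beyond the list, was 13213 for the 78 genes and 28854 for all protein-coding genes. By chromosome, the strongest were 5 of 23 genes on I, 5 of 18 on III and 5 of 17 on IV. The 10 genes on II, 8 on V and 2 on X gave 0. These counts are small and have no share of all genes by chromosome beside them, so no difference between chromosomes is drawn.

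**Figure D1:**
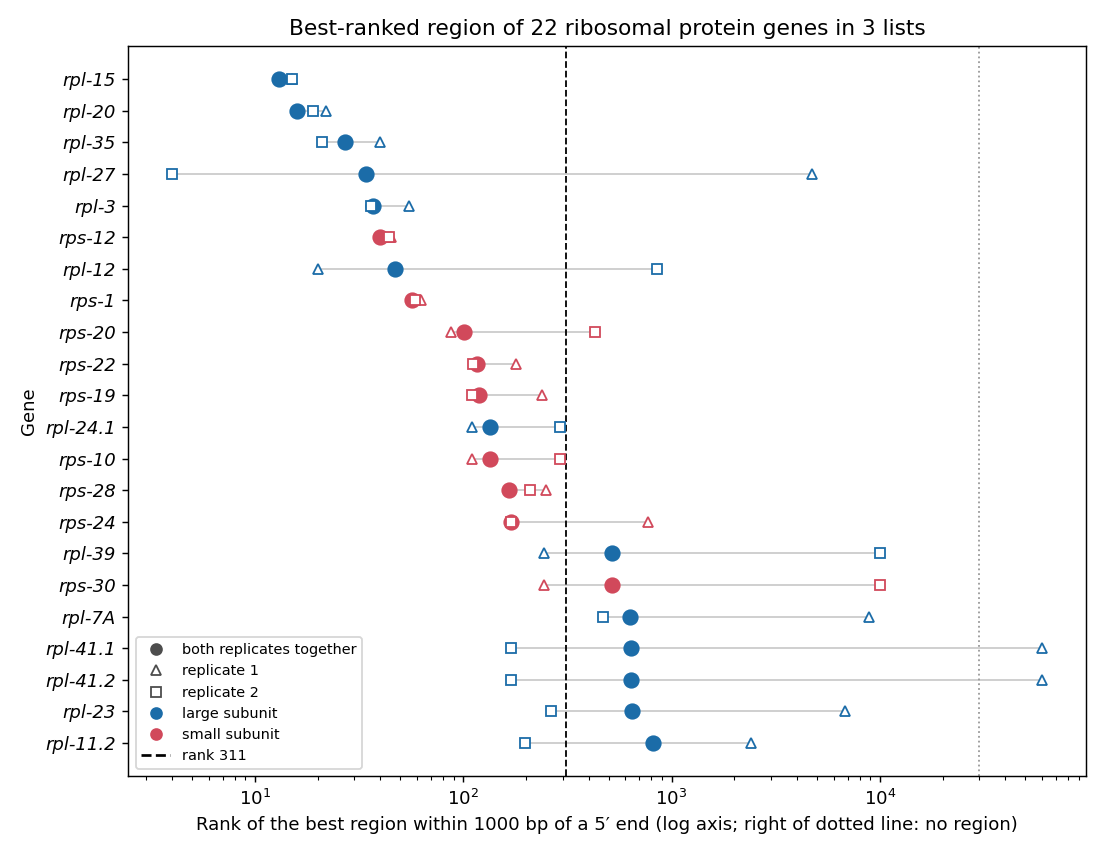
Best rank (log axis) of the 22 genes ranked at most 1000 in the list from both replicates (filled circles), with the rank in replicate 1 (triangles) and replicate 2 (squares). Symbols right of the dotted line mark a list without a region; the dashed line is rank 311, and most of the 15 genes to its left have close symbols while rpl-27, rpl-12 and every gene from rpl-39 down are spread.

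The small subunit contributed 8 of its 31 genes to the strongest. In the 40S head, which handles tRNA and the mRNA channel, the strongest were 5 of the 13 listed genes. rps-12, of the beak of the head, ranked 40 in both replicates together, 45 in replicate 1 and 44 in replicate 2. rps-20, of the head, ranked 101, with 87 in replicate 1 and 431 in replicate 2. rps-19, whose human counterpart is mutated in Diamond-Blackfan anaemia, ranked 119, with 240 and 110. These replicate ranks were close for rps-12 and lay on different sides of rank 311 for rps-20. rps-10, near the mRNA entry, ranked 135, with 110 and 291, at a region it shared with the large subunit gene rpl-24.1. rps-28, near the mRNA exit, ranked 166, with 250 and 210.

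In the body of the 40S subunit the strongest were 3 of 18 listed genes. rps-1 ranked 57, with 63 in replicate 1 and 59 in replicate 2. rps-22 ranked 117, with 180 and 111. rps-24 ranked 170, with 773 and 170, so that it was strong in replicate 2 and outside the 311 in replicate 1. The next body gene was rps-30, at rank 516, whose product is made as a fusion with a ubiquitin-like protein. Its ranks were 243 in replicate 1 and 9988 in replicate 2, at a region shared with rpl-39.

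The large subunit contributed 7 of its 47 genes, among them the 5 lowest ranks of the 78 genes. rpl-15 ranked 13, with 15 in each replicate, and its region lay at IV:654765-655074. rpl-20 ranked 16, with 22 in replicate 1 and 19 in replicate 2. rpl-35, which encodes a protein at the rim of the tunnel where the nascent chain leaves, ranked 27, with 40 and 21. These were the 3 genes of lowest rank, and their replicate ranks were close together. rpl-3, whose protein reaches towards the peptidyl transferase centre, ranked 37, with 55 and 36. rpl-12, of the base of the stalk that recruits elongation factors, ranked 47, with 20 in replicate 1 and 848 in replicate 2. rpl-24.1, whose protein takes part in a bridge between the subunits, ranked 135, with 110 and 291. rpl-3 and rpl-24.1 were thus strong in each replicate, and rpl-12 in replicate 1 alone.

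The remaining strong large subunit gene, rpl-27, ranked 34 with 4717 in replicate 1 and 4 in replicate 2. Its region did not lie upstream but 734 bp downstream of its 5′ end, past the end of this short gene, and 44 bp from where egl-30 starts, which encodes the alpha subunit of Gq. It was also the region of highest GC content, with 63.7% within 100 bp of the summit, where the median of the 14 regions was 43.0%. rpl-27 was among the strongest of replicate 2 and not of replicate 1.

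Just outside the threshold, replicate ranks differed widely. rpl-39, which lines the exit tunnel, shared rank 516 with rps-30 (243 in replicate 1, 9988 in replicate 2). rpl-7A ranked 629, with 8910 and 471. rpl-41.1 and rpl-41.2, neighbouring copies of the gene for a very small protein, shared rank 640, with no region in replicate 1 and rank 169 in replicate 2. The sources used here do not give how reads were placed between these copies. rpl-23 ranked 648, with 6768 and 265, and rpl-11.2, whose protein binds 5S rRNA, ranked 814, with 2399 and 197. Of these 7 genes 2 were among the strongest of replicate 1 and 4 of replicate 2; none was in both. Of the listed role groups of the large subunit, the strongest were 1 of 8 genes of the exit tunnel rim (rpl-35), 0 of 3 of the 5S particle and 1 of 2 of the stalks (rpl-12). These groups are too small for their shares to be set against each other.

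No region at all was found within 1000 bp of 14 genes in any of the 3 lists. They were rpl-2, rpl-6, rpl-10, rpl-18, rpl-30, rpl-36.A, rpl-37, rpl-38, rps-0, rps-5, rps-7, rps-11, rps-21 and rps-29, which is 17.9% of the ribosomal protein genes; 27.2% of all protein-coding genes had no region in any list. A further 14 (17.9%, against 21.3% of all genes) had a region in a replicate's list only. These were rpl-1, rpl-7, rpl-11.1, rpl-13, rpl-17, rpl-19, rpl-25.2, rpl-29, rpl-36, rpl-42, rps-8, rps-9, rps-18 and rps-25, at ranks from 5325 upwards. Of the pair of genes for the 5S-binding protein, rpl-11.2 ranked 814 and rpl-11.1 had no region in the list from both replicates.

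Large and small subunit genes had shares with overlapping intervals, which cover the counting of genes only and are not a test. The strongest share was 14.9% (95% interval 6.20 to 28.3) for the large and 25.8% (11.9 to 44.6) for the small subunit, and each interval held the other's value. At 1000 regions the shares were 27.66% and 29.03%, and for any region 61.7% and 67.7%. The median best ranks were 12637 and 14419. In replicate 1 they were 22458 for the large and 11255 for the small subunit, and in replicate 2 they were 10930 and 9988. The large subunit had the lower median in the list from both replicates and the higher one in each replicate, so the medians give no order of the subunits.

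**Figure D2:**
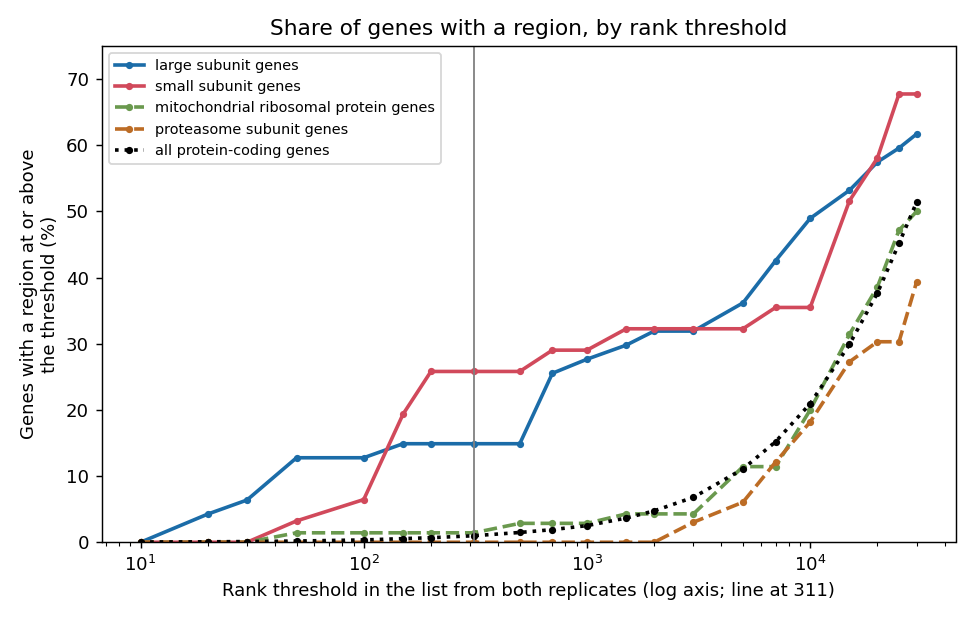
Share of genes (%) with a region within 1000 bp at or above a rank threshold (log axis) in the list from both replicates, for large and small subunit genes, mitochondrial ribosomal protein genes, proteasome subunit genes and all protein-coding genes. At the grey line (rank 311) the values are 14.9%, 25.8%, 1.43%, 0 and 0.986%; all curves lie between 39.4% and 67.7% at the end of the list.

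Each replicate on its own gave a similar count. In replicate 1, 15 genes (7 large, 8 small) were beside its 311 strongest regions, against 1.01% of all genes, and 49 had any region, against 51.1%. In replicate 2 the counts were 17 (10 large, 7 small), against 0.921%, and 53, against 51.6%. Strong in both were 11 genes (14.1%, against 0.461% of all genes), 5 large and 6 small: rpl-3, rpl-15, rpl-20, rpl-24.1, rpl-35, rps-1, rps-10, rps-12, rps-19, rps-22 and rps-28. All 11 were among the 15 of the list from both replicates. The other 4 were rpl-12 and rps-20, strong in replicate 1 only, and rpl-27 and rps-24, strong in replicate 2 only. The nearest ranks to the threshold were 250 inside and 773 outside in replicate 1, and 291 and 377 in replicate 2.

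The sites of the regions in each replicate were compared next. Of the 39 genes with a region in each replicate's list, 30 (76.9%) had best regions that overlapped by at least 1 bp, where 47.5% of the 6390 such genes in the genome did. All 15 strongest genes were among the 30, but the strongest regions are the authors' reproducible peaks, so their overlap follows from how they were chosen. Of the other 24 genes, 15 (62.5%) had overlapping regions. Across the 39 genes the replicate ranks had a Spearman rho of 0.69, and across the 6390 genes it was 0.18. The 39 include the 15 strongest genes, whose regions were chosen for agreement between replicates, so no contrast is drawn between these values. Both values of rho are descriptions across genes, which share libraries and, for divergent pairs, regions.

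**Figure D3:**
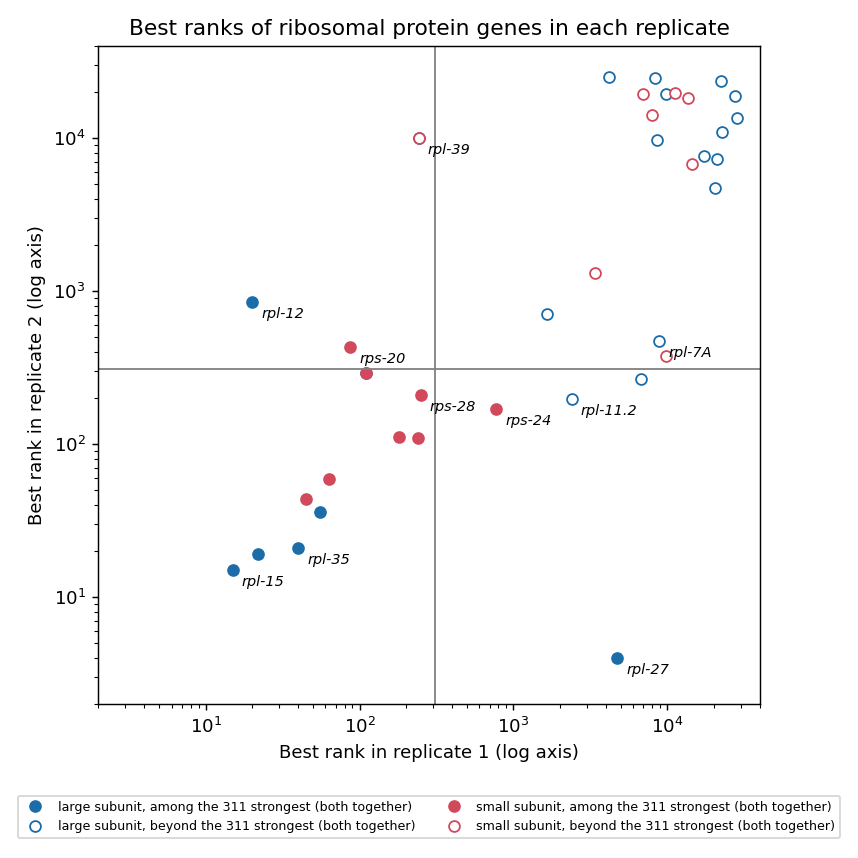
Best rank in replicate 1 against replicate 2 (both log axes) for the 39 genes with a region in each list; filled points are the 15 genes among the 311 strongest of both replicates together, and grey lines mark rank 311. The 11 genes in the lower left are strong in both; rpl-27 (4717 and 4), rps-24, rpl-11.2 and rpl-23 lie at lower right, strong in replicate 2 only, and rpl-12, rps-20 and the shared point of rpl-39 and rps-30 at upper left, strong in replicate 1 only. The genes rpl-24.1 and rps-10 share a point too.

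Position was tighter than at other genes. Of the 15 strongest, 14 had their summit upstream and within 500 bp of the 5′ end, with a median position of -257 bp (quartiles -333.5 and -202) and rpl-27 as the exception. At the 182 other genes with a strongest region, 97 (53.3%) had it there, with a median of -284 bp (quartiles -616 and -139). The 182 include neighbours within 1000 bp of the same regions, such as ska-3 at rps-12, so the groups are not separate. rpl-12 (-39 bp) and rps-22 (-42 bp) had the summit closest to the annotated 5′ end, and rpl-35 (-466 bp) and rps-28 (-447 bp) farthest upstream. The weaker best regions of the other 35 genes had a like place, with 23 (65.7%) upstream within 500 bp, where 28.4% of weaker best regions of other genes were. TTTCAG, the letters of a typical splice acceptor, ended within 3 bases before a coding 5′ end at 42 of the 78 genes (53.8%), against 17.9% of all genes, and at 11 of the 15 strongest. Starts of transcription were not mapped here, so all distances are from annotated 5′ ends.

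**Figure D4:**
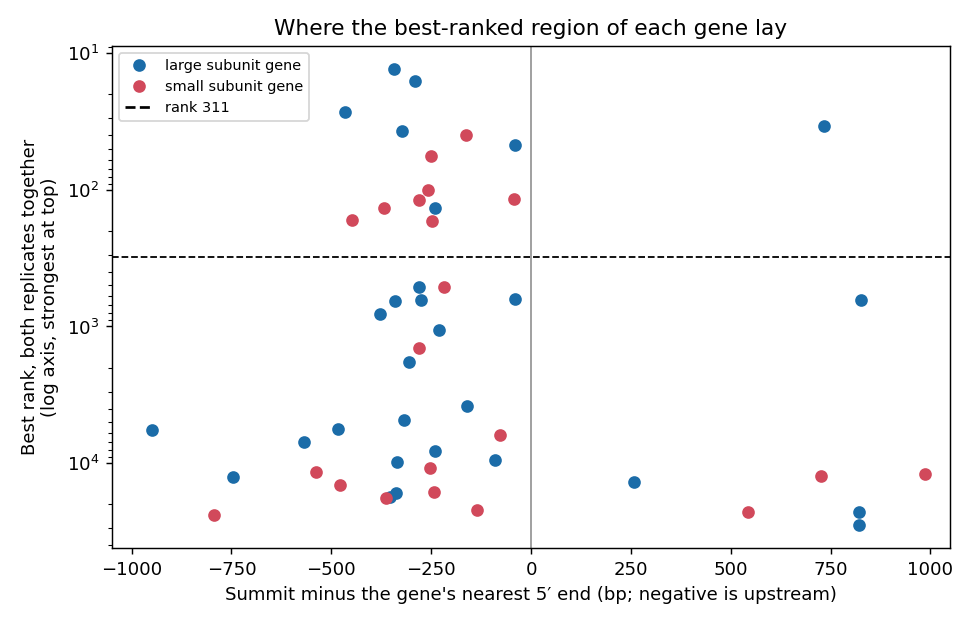
Position of the summit relative to the gene's nearest coding 5′ end (bp, negative upstream) against the best rank in the list from both replicates (log axis, strongest at top), for the 50 genes with a region. Above the dashed line at rank 311, 14 of 15 points lie between -466 and -39 bp and 1, rpl-27, at 734 bp.

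Most of these regions stood between 2 genes. Of the 78 ribosomal protein genes, 47 (60.3%) had as next gene upstream one that pointed the other way less than 1000 bp off, where 17.2% of all genes did. Of these 47, 10 (21.3%) had a strongest region, against 1.66% of all genes so arranged. In all 10 the summit lay between the genes. Of the 5 genes with a divergent neighbour farther off, 3 had a strongest region (rpl-35, rps-28 and rps-24), against 1.06% of all genes so arranged. With the upstream neighbour on the same strand, 1 of 8 genes had one where it lay within 500 bp (rpl-27, against 0.652%) and 1 of 16 where it lay farther off (rpl-3, against 0.739%). The last 3 groups are small, and their counts rest on 1 to 3 genes each.

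A region between 2 genes cannot be assigned to 1 of them. A second coding 5′ end lay within 1000 bp of the summit for 12 of the 15 genes, and for 80 of the 182 other genes with a strongest region (44.0%). The 182 include neighbours at the same regions, so these counts are not separate. The neighbours were K11H12.8 at rpl-15, Y17G9B.5 at rpl-20, ska-3 at rps-12, lin-54 at rpl-12, ifet-1 at rps-1, ekl-4 at rps-20, polh-1 at rps-22, hsr-9 at rps-19, Y41D4B.4 at rps-28, C53H9.4 and egl-30 at rpl-27, and rpl-24.1 and rps-10 at each other. lin-54 encodes a DNA-binding subunit of the DREAM complex, ifet-1 a translational repressor that binds eIF4E, and polh-1 a translesion DNA polymerase. At 6 of the 15 genes (rpl-20, rpl-27, rps-10, rps-12, rps-19 and rps-20) the summit was nearer to another gene's 5′ end. Counting only regions nearest to the ribosomal protein gene left 9 genes, 5 large and 4 small. No share of all protein-coding genes under this stricter rule stands beside the 9, so it is not set against the share given earlier. The count of 6 has no figure for other genes beside it either. rpl-3, rpl-35 and rps-24 had no other coding 5′ end within 1000 bp, at ranks 37, 27 and 170.

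The words searched in these regions were those of known factor families and a GA repeat. Within 100 bp of the summit, GAGAGA (or TCTCTC) stood in 4 of the 14 regions (28.6%, 95% interval 8.39 to 58.1), those of rpl-3, rpl-27, rps-1 and rps-24. It stood in 47.1% of the 140 other strongest regions near a coding 5′ end and in 13.1% of all 30000 candidates, and the interval holds both values. Within 50 bp the 14 regions kept their share, while that of the 140 was 29.3% and that of all candidates 6.88%, which lies below the interval. GA repeats of 12 bases or more were in 0 of the 14 regions (upper bound 23.2%) and in 14 of the 297 other strongest regions (4.71%). They were in 4.29% of the 140 and in 0.557% of all candidates, so 0 of 14 does not separate the groups. TGATNNAT, the site letters of a Hox protein with its PBX-type cofactor, stood in 0 of 14 (upper bound 23.2%), in 15.71% of the 140 and in 17.01% of all candidates; 0 of 14 does not separate the groups. TAATTA, a homeodomain core, TGATAA, letters of the GATA factor site, CACGTG and TGACTCA also stood in 0 of the 14. Their shares of all candidates were 9.22%, 18.85%, 3.51% and 2.1%, each under that upper bound, so these counts of 0 do not separate the groups either. Median GC content was 43.0% in the 14 regions, 44.8% in the 297 and 35.8% in all candidates.

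Another 3 words were read off these very sequences, so their share here is raised by the choice and has no test. AGTGTA stood in 5 of the 14 regions (35.7%, those of rpl-15, rpl-20, rpl-35, rpl-3 and rps-1). All 5 are among the windows printed above, off which the word was read, so no link to rank is drawn. It stood in 0 of the 33 weaker best regions of ribosomal protein genes, in 12.1% of the 140 other strongest regions near a coding 5′ end and in 7.77% of all candidates. GAGCGT stood in 4 of the 14 (28.6%), in 0 of the 33, in 14 of the 140 and in 3.04% of all. ACCGTA stood in 7 of the 14 and in 10 of the 33 weaker regions (30.3%), but in 7.14% of the 140 and 5.35% of all. With 0 of 33, the upper bound for AGTGTA and GAGCGT in the weaker regions is 10.6%, above their shares in all candidates, and the strong regions had been read to choose the words, so no contrast between strong and weak regions is drawn from them. A word is a description of the letters and not a binding site.

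Other genes of translation were described from lists. Of the ribosomal proteins whose symbols the rule does not take, 6 were listed (rla-0, rla-1, rla-2, ubq-2, ubl-1 and rack-1). None of these 6 had a strongest region (upper bound 45.9%, above the 19.2% of the 78 genes), and none was within the first 1000. Of 8 elongation factor genes 1 did: eef-1G, a subunit of the exchange factor of the elongation factor that brings tRNA, ranked 196, with 304 in replicate 1 and 278 in replicate 2. Next came eef-2, the translocase gene, at rank 371 (4981 and 221), iff-2, an eIF5A gene, at 440 (9147 and 166) and eef-1A.1 at 575 (412 and 5241), so that 4 of the 8 were within the first 1000 regions (95% interval 15.7 to 84.3%), where 2.51% of all genes were. The share beside the 311 strongest was 12.5% (0.316 to 52.6%), against 0.986% of all genes and with an interval that held the 19.2% of the ribosomal protein genes, and in replicate 2 alone it was 3 of 8, against 0.921%. Of 25 initiation factor genes 1 had a strongest region, eif-3.C at rank 247 (1602 and 158). That share of 4% had an interval (0.101 to 20.35%) that also held the 19.2%. Of 25 ribosome biogenesis genes 0 had a strongest region (upper bound 13.7%, below the 19.2%). Among them ncl-1, a repressor of rRNA synthesis, came closest at rank 372 (310 and 2104).

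Genes of comparable protein complexes gave shares near the background. Of 70 mitochondrial ribosomal protein genes 1 (1.43%, 95% interval 0.0362 to 7.70) had a strongest region: mrps-7 at rank 49, with 38 in replicate 1 and 90 in replicate 2. The next, mrpl-23, ranked 362. Of 33 proteasome subunit genes 0 did (upper bound 10.6%), with 1 in replicate 1 and 0 in replicate 2. Any region of the list stood beside 35 of the 70 mitochondrial (50%) and 13 of the 33 proteasome genes (39.4%), against 51.4% of all genes. The intervals of both families (37.8 to 62.2 and 22.9 to 57.9) held that share. At the 311 strongest regions the intervals of both families lay below the 19.2% of the cytosolic ribosomal protein genes, which has its own interval of 11.18 to 29.73. All these intervals cover the counting of genes only. The cytosolic genes were chosen with results known, so this is a description and not a test.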

How the data were processed

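Per the deposited text files that accompany the libraries, the authors derived each replicate's list of candidate regions from that replicate's alignments and 1 further file, a list from both replicates together, and an optimal list after IDR, which scores agreement of ranks between replicates. Not stated in these sources are the aligner, the peak caller, the IDR threshold and what the deposited signal column is relative to; the authors' signal therefore served only to rank regions within a list (ties take the lowest rank). Lists on the older build were not used. All regions of a list had 1 width: 310 bp for both replicates together, 330 bp in replicate 1 and 300 bp in replicate 2.

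From these lists, best ranks were computed with Python 3.11.15 and NumPy 2.4.6, and exact Clopper-Pearson intervals at 95% with SciPy 1.17.1; the search was checked on simulated regions. Gene models were Ensembl's on WBcel235. The genes, lists and words were chosen with earlier results of these data known, and no test was made. Named are genes ranked at most 1000, those without a region, those with the largest ratio of replicate ranks and the best of each list. Role and pathway lists were written from general knowledge; 25 of 27 initiation factor and 25 of 27 biogenesis symbols matched.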

Additional observations from a re-analysis of the deposited data

How the results depend on the processing

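The count of 15 genes beside the 311 strongest regions stayed between 13 and 15 with windows of 500 and 2000 bp and with 200 bp downstream. It stayed there with any base of a region, with all transcripts and at a threshold of 156 regions. It also did so without the 10 genes whose symbols match another's before a dot. These 10 include rpl-36 and rpl-36.A but not rpl-7 and rpl-7A. Not all of the 10 are copies, since rpl-24.1 and rpl-24.2 encode different proteins. The 500 bp window and the 200 bp limit lost rpl-27. Distinct regions in place of genes, added after seeing the data, gave 14. Counting only regions nearest to the gene gave 9 genes, 4 of them small subunit genes, with no share of all genes under that rule to set beside it. At 1000 regions the large subunit count rose from 7 to 13.

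With 2 replicates, leaving out 1 leaves the other's own list, so the values repeat those of each replicate and are no separate check. They were 15 to 17 genes, 7 to 10 large and 7 to 8 small. Without replicate 1, rpl-12 and rps-20 were lost and rpl-11.2, rpl-23, rpl-41.1 and rpl-41.2 gained. Without replicate 2, rpl-27 and rps-24 were lost and rpl-39 and rps-30 gained. Medians moved more: 10930 to 22458 for the large and 9988 to 11255 for the small subunit. The small subunit median was 22092 with 500 bp, 12396 with 2000 bp and 17886 with the 200 bp limit. The large subunit median was 7780 with 2000 bp and 15379 with the 200 bp limit. A wider window can only keep or lower a gene's best rank, so the direction of these shifts follows from the rule. What set their size was not tested. Both medians lay beyond the list for nearest regions only, as did the large subunit median at 500 bp. Overlap of replicate regions by 0.5 of the shorter gave 28 of 39 genes in place of 30. No paired analysis was possible because there was 1 group. Signal over background is unknown, so weak ranks carry no measure of occupancy.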
